A study of Arabidopsis thaliana with 3 samples.

Results

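The 8 genes described here encode cation exchangers of the CAX and CCX classes of Arabidopsis thaliana, and they were chosen by locus code from the 29030 loci on the array. They are CAX1 (AT2G38170), CAX2 (AT3G13320), CAX3 (AT3G51860), CAX4 (AT5G01490), CAX7 (AT5G17860), CAX9 (AT3G14070), CCX4 (AT1G54115) and AT5G17850, which the array annotation calls a cation exchanger and for which neither source gives a symbol. The list was drawn up with the ratios of this experiment known, and CAX7 had already been seen at least 2-fold lower in pfd4 on all 3 arrays. The ratios of these genes are therefore given as a description, with no test of their own.

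The study compared pfd4 with its wild type Col-0. The name pfd4 stands for a line with a lesion in a prefoldin subunit gene; prefoldin is a chaperone complex that hands new actin and tubulin chains to the chaperonin. The sources used here do not give the nature of the lesion or the plant part sampled. Both genotypes grew to an age of 2 weeks at 22 °C under days of 16 h light and 8 h dark, and a stay of 24 h at 4 °C followed. Each of 3 dual-dye arrays took RNA of both genotypes. The labels call them biological replicates, but all 3 descriptions carry the number 1 and the titles alone tell them apart, so the SDs measure the spread between these arrays. The pfd4 RNA carried Cy3 on arrays 1 and 2 and Hyper5 on array 3. No plants kept at 22 °C were analysed here, so each ratio sets pfd4 against Col-0 in the cold, and how either genotype responded to the cold is not described.

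A log2 ratio below 0 means less transcript in pfd4 than in Col-0. This reading is likely rather than certain: dyes are labelled, the numerator of the ratio is not, and the PFD4 transcript (AT1G08780) served as the guide. It stood at -3.08, -2.71 and -2.17 on arrays 1, 2 and 3. If Col-0 was the numerator, every direction below turns as a whole. A ratio carries no level, so the genes cannot be ranked by abundance and the presence of a tissue marker cannot be checked. In RNA from whole tissue, fewer cells of a type and less RNA per cell cannot be told apart. The log2 ratios of all loci spread more widely on array 2 (SD 0.55) than on arrays 1 (SD 0.36) and 3 (SD 0.37). Arrays 1 and 3, which have opposite dyes, correlated at r = -0.27 over the 29030 loci, arrays 2 and 3, also of opposite dyes, at r = -0.04, and arrays 1 and 2 at r = 0.40. These correlations are across loci, which are not independent.

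CAX proteins are antiporters that move calcium into the vacuole in exchange for protons, driven by the proton gradient that the vacuolar proton pumps build. They help to end the calcium signals that cold, touch or salt set off in the cytosol. In Arabidopsis, CAX1 is known for a link to cold: plants without it accumulate more CBF transcripts during cold acclimation and become more tolerant to freezing. CCX proteins form a neighbouring class of the same superfamily, closer to the sodium and potassium dependent calcium exchangers of animals, and several of them carry potassium, sodium or manganese.

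Transcripts of 6 of the 8 exchangers gave a negative ratio on all 3 arrays, and none gave a positive ratio on all 3. The 6 were CAX7, AT5G17850, CAX3, CAX1, CCX4 and CAX9. Among all loci, 12.1% were negative and 12.3% positive on all 3 arrays; since the list was drawn up on these ratios, nothing is read from the difference. The means of the 8 ran from -1.57 in CAX7 to -0.03 in CAX4 with a median of -0.57, beside a median of 0.01 over all loci. Nothing is read from this gap either. CAX7 was the 1 exchanger of the 8 at least 2-fold lower on all 3 arrays, as were 0.0241% of all loci.

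**Figure D1:**
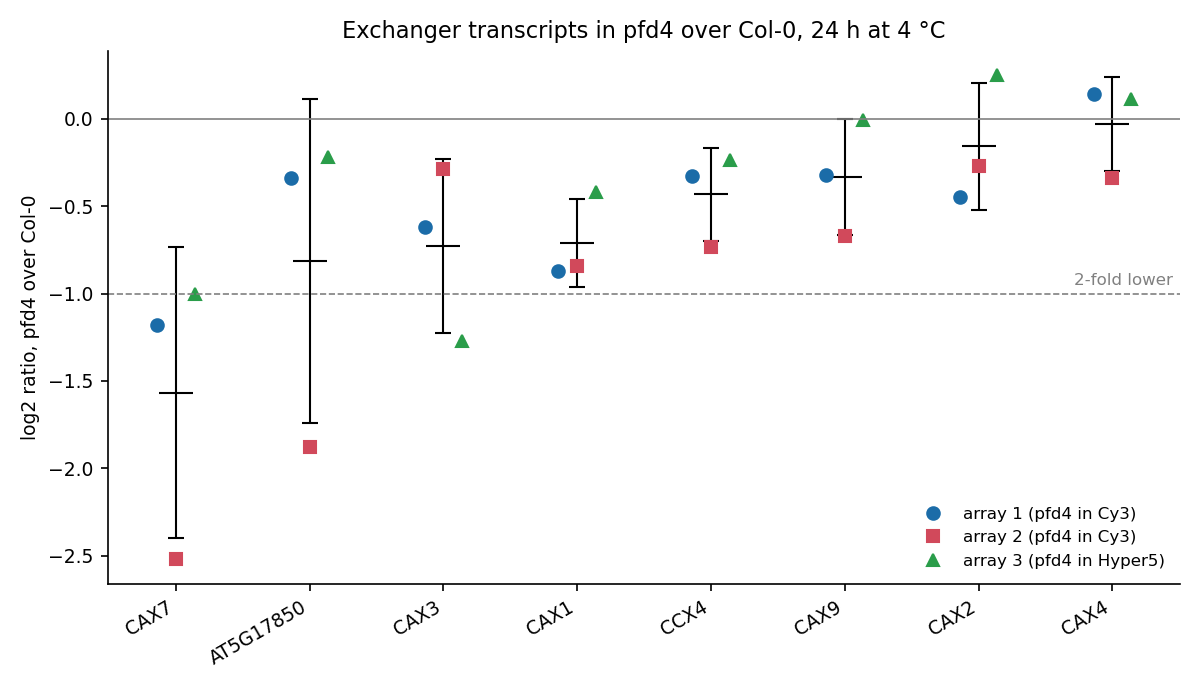
Log2 ratios of pfd4 over Col-0 after 24 h at 4 °C for the 8 exchangers, ordered by mean. Points are single arrays, horizontal bars the mean and whiskers the SD (n = 3). CAX7 lies at or below -1 on every array, AT5G17850 is lowest on array 2 and CAX3 on array 3, and CAX2 and CAX4 have points on both sides of 0.

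CAX7 stood lowest. The array annotation describes its product as an exchanger of calcium for sodium, and in Arabidopsis the gene is known from work on leaf senescence and reactive oxygen balance. Its log2 ratios were -1.18, -2.52 and -1.0 on arrays 1, 2 and 3, and averaged -1.57 ± 0.83 (SD, n = 3). The transcript was thus 2.96-fold lower in pfd4, with 2.27-fold, 5.74-fold and 2.00-fold lower levels on the single arrays. Array 2 gave by far the strongest ratio, and array 3, with the dyes exchanged, gave one exactly at the 2-fold line. In units of each array's SD over all loci, the 3 ratios were -3.26, -4.55 and -2.67. On array 1, 0.093% of loci lay lower, on array 2 0.231% and on array 3 1.44%. By the mean, 16 of the 29030 loci lay lower. CAX7 had been seen lower on all 3 arrays before it was listed, so nothing is read from this place. CAX7 was measured by 1 spot, so the probe has no second reading on the array.

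The rule of at least 2-fold on every array put CAX7 at its edge. EXPA16, an expansin gene, had a weakest ratio of -1.0 and also lay just inside. WRKY53 and UGT73B3 lay just outside, with a weakest ratio of -0.97 each.

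AT5G17850 is the gene next to CAX7 on chromosome 5. Its log2 ratios were -0.34, -1.88 and -0.22, a mean of -0.81 ± 0.93 (SD, n = 3). The mean rests on array 2, and without array 2 it was -0.28. Relative to CAX7, however, the gene kept a steady distance: the log2 ratio of CAX7 minus that of AT5G17850 was -0.84, -0.64 and -0.78, with a mean of -0.75 ± 0.10 (SD, n = 3). Such steadiness was not particular to these neighbours. Between exchangers on different chromosomes, the SD of the difference was 0.11 for CAX9 minus CCX4 and 0.13 for CAX1 minus CAX2. CAX7 and AT5G17850 were both lowest on array 2 and closer to 0 on arrays 1 and 3. Each has 1 spot, no probe sequences were used here, and whether either probe also takes up the other transcript was not tested.

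The next genes along the chromosome did not share this pattern. PSRP6, which encodes a protein of the plastid ribosome and lies on the far side of CAX7, had log2 ratios of -0.17, 0.05 and 0.36. CSA1, the gene after it, had -0.37, 0.29 and -0.13. AT5G17840, beyond AT5G17850, had 0.19, -0.31 and -0.15. Each of these 3 genes took both signs. Of the 3 genes on each side in the RefSeq order, AT5G17847 and AT5G02805 have no spot here.

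**Figure D2:**
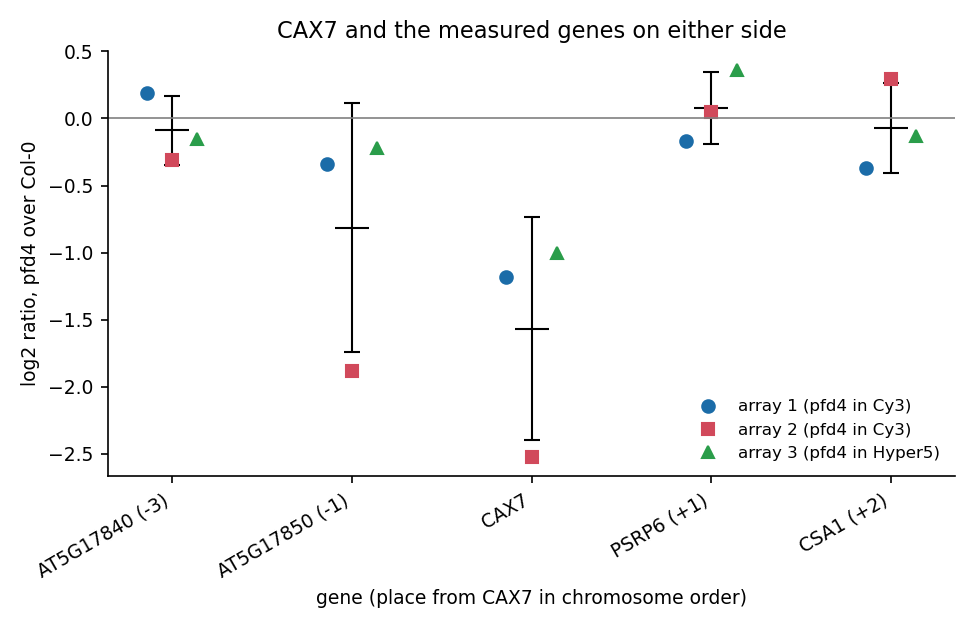
Log2 ratios of pfd4 over Col-0 for CAX7 and the measured genes among the 3 on each side, in chromosome order and not to scale. Points are arrays, bars the mean and whiskers the SD (n = 3). CAX7 (-1.57) and AT5G17850 (-0.81) have negative points on all arrays, while the means of the other 3 genes lie between -0.09 and 0.08.

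CAX9 and CCX4 are the other CCX-class genes among the 8. CAX9, also listed as CCX3, is known in Arabidopsis for a protein of inner membranes that moves potassium, sodium and manganese. It had log2 ratios of -0.32, -0.67 and -0.01, a mean of -0.33 ± 0.33 (SD, n = 3). Its ratio on array 3 lay next to 0. CCX4 had -0.33, -0.74 and -0.24, a mean of -0.43 ± 0.27 (SD, n = 3). CCX4 has 2 spots, which read -0.39 and -0.27 on array 1, -0.87 and -0.60 on array 2, and -0.33 and -0.14 on array 3. These gaps can be set against the SD between spots of one locus over the whole array, which by array was 0.36, 0.38 and 0.34. CAX7, AT5G17850, CAX9 and CCX4, the 4 CCX-class genes among the 8, had their lowest ratio on array 2, as did CAX4.

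CAX1, the main calcium exchanger of the leaf vacuole, had the smallest SD of the 8, closely followed by CCX4 and CAX4 (0.27 each). Among the 8, only CAX1 and CCX4 average 2 spots. The log2 ratios of CAX1 were -0.87, -0.85 and -0.42, a mean of -0.71 ± 0.25 (SD, n = 3), or 1.64-fold lower in pfd4. The 2 spots of the locus stand for 2 transcript models. The AT2G38170.1 spot read -0.93, -0.83 and -0.49 on the 3 arrays. The AT2G38170.2 spot read -0.81, -0.86 and -0.35. Both spots were negative on every array, and both were weaker on array 3. With a dye term, which averages the 2 dye orientations equally, the mean of CAX1 was -0.64.

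CAX3 is the closest relative of CAX1 and is known to take over part of its work when CAX1 is lost. It had log2 ratios of -0.62, -0.29 and -1.27, a mean of -0.73 ± 0.50 (SD, n = 3), or 1.65-fold lower in pfd4. Its array order was opposite to that of these 4 CCX-class genes, with the lowest ratio on array 3 and the weakest on array 2. On array 3 it was below CAX7, and 0.599% of loci lay lower there. Without array 3 its mean was -0.46. The means of CAX1 and CAX3 differed by 0.02 ± 0.74 (SD, n = 3), and the differences of CAX1 minus CAX3 on single arrays were -0.25, -0.56 and 0.85. Equal means here do not stand for equal ratios on an array.

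CAX2 and CAX4 lay around 0. CAX2, a vacuolar exchanger that also carries manganese, had log2 ratios of -0.45, -0.27 and 0.25, a mean of -0.16 ± 0.36 (SD, n = 3). The sign was negative on arrays 1 and 2 and positive on array 3. Array 3 alone had the dyes exchanged, so dye and array cannot be told apart. CAX1 was below CAX2 on all 3 arrays, with differences of -0.42, -0.58 and -0.67. CAX4, a vacuolar exchanger known from roots, had 0.14, -0.34 and 0.11, a mean of -0.03 ± 0.27 (SD, n = 3). It was the only one of the 8 with a positive ratio on array 1, and its mean took the other sign with the arrays scaled to one SD (0.01), with a dye term (0.01) and without array 2 (0.13).

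Ordered by mean from low to high, the genes ran CAX7, AT5G17850, CAX3, CAX1, CCX4, CAX9, CAX2 and CAX4. Of the 7 steps between neighbours in this order, 2 were larger than the SD of the difference over the 3 arrays. These were CAX7 to AT5G17850, given above, and CAX1 to CCX4, at -0.28 ± 0.23 (SD, n = 3). The steps from AT5G17850 to CAX3 and from CAX3 to CAX1 lay within their spread, as did those from CCX4 to CAX9, to CAX2 and to CAX4.

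**Figure D3:**
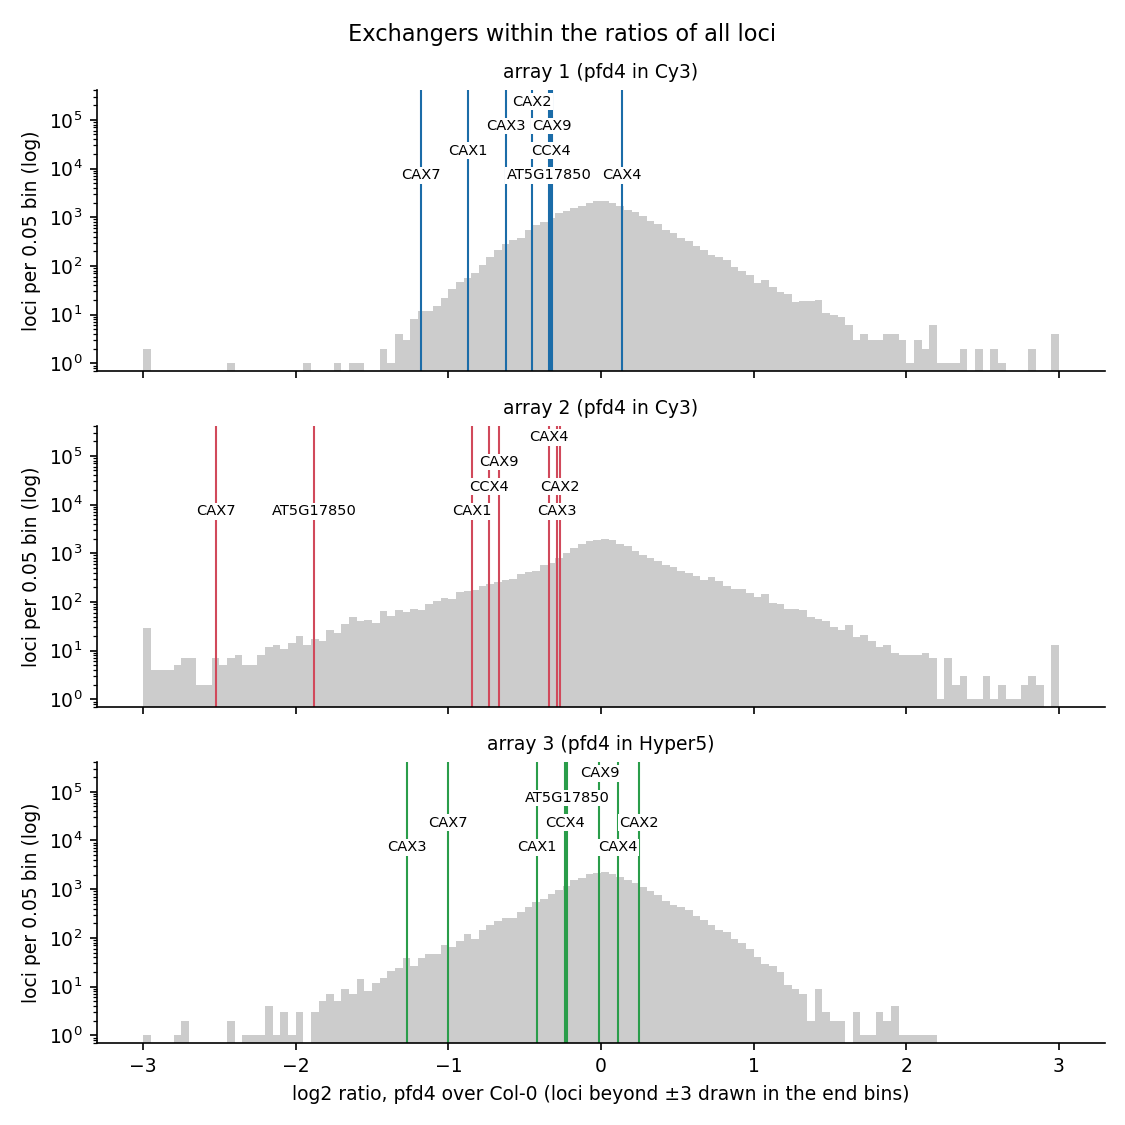
Histograms of the log2 ratios of all 29030 loci on arrays 1, 2 and 3 (counts on a log axis), with the 8 exchangers as vertical lines. CAX7 lies in the lower tail of every array, with 0.093%, 0.231% and 1.44% of loci below it, while CAX3 lies in the tail on array 3 and AT5G17850 on array 2.

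Limma's test of the 3 ratios against 0 called 0 of the 29030 loci at an adjusted p under 0.05 (0%), the 8 exchangers among them, and the smallest adjusted p over all loci was 0.314. At an unadjusted p under 0.05, 1372 loci remained, or 4.73%, and 2.58% of loci were lower in pfd4 at this threshold. Because the list was drawn up on these ratios, the exchangers are not counted here. The count of loci depends on single arrays. It was 476 without array 2, 3724 without array 3 and 1103 without array 1, and 3878 with the sign of array 3 turned. Limma with array weights and limma with a dye term also called 0 loci. Since 0 of all loci were called, PFD4 included, the 0 called in each list below says nothing about that list.

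The remaining exchangers of the superfamily came from a list fixed by locus. CAX5 and CAX6 belong to the same class as CAX1 to CAX4. CAX5 had log2 ratios of 0.05, -0.02 and -0.06, and CAX6 had -0.14, 0.04 and -0.23, so neither kept one sign. CAX11 (AT1G08960), also listed as CCX5, had -0.80, -0.78 and 0.41, with close values on arrays 1 and 2 and the other sign on array 3. It lies 22 genes from PFD4 on chromosome 1. NCL (AT1G53210), a sodium and calcium exchanger with calcium-binding EF hands, had -0.22, -0.50 and -1.01, a mean of -0.58 ± 0.40 (SD, n = 3). NCL was the only one of these 5 that was negative on all arrays, and its lowest ratio, as for CAX3, came on array 3. MHX, which exchanges magnesium and zinc for protons, had -0.35, -0.06 and 0.40. The 5 had a median of -0.11, and limma called 0 of them.

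The other routes by which calcium leaves the cytosol were set beside the exchangers. Calcium ATPases pump calcium with ATP in place of a proton gradient. Of 14, 3 were negative and 0 positive on all 3 arrays, 0 were called by limma, and the median of their means was -0.11. The counts of one sign here and in the lists below stand beside 12.1% negative and 12.3% positive over all loci. ACA2, a pump of the endoplasmic reticulum, had log2 ratios of -0.66, -0.50 and -0.39. ACA8, a pump of the plasma membrane, had -0.02, -0.80 and -0.88. The lowest mean in this list, -0.56, lay above those of CAX7, AT5G17850, CAX3 and CAX1. Those exchangers were listed with their ratios known, so nothing is read from this order.

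Vacuolar proton pumps build the gradient that CAX proteins use. Of 21 genes for subunits of the vacuolar ATPase and for pyrophosphatases, 2 were negative and 1 was positive on all 3 arrays, 0 were called, and the median was 0.02. AVP1, the vacuolar pyrophosphatase, had log2 ratios of -0.58, -0.08 and -0.23, a mean of -0.30 ± 0.26 (SD, n = 3). VHA-E2 (-0.12, -0.02 and -0.05) and AVA-P4 (0.02, 0.09 and 0.51) were the other 2 of one sign. By array, the median of the pumps was -0.12, 0.01 and 0.25.

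A further list held genes for proteins that bind or activate CAX proteins and for the calcium sensors that work with the kinase SOS2. Of 6, 0 were negative and 1 was positive on all 3 arrays, 0 were called, and the median was 0.18. The 1 was SOS3, a calcium sensor of the salt response, at 0.26, 0.12 and 0.13. The kinase gene SOS2, whose product activates CAX1, had 0.30, 0.74 and -0.48. CXIP1, which encodes a glutaredoxin first found as an activator of CAX1, had -0.03, -0.47 and 0.21.

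Calcium channels, which let calcium into the cytosol, numbered 11, of which 1 was negative and 1 positive on all 3 arrays and 0 were called, with a median of -0.04. TPC1, the slow channel of the vacuole, had -0.08, -0.07 and -0.60, and MCA2 had 0.15, 0.38 and 0.07. Sodium and potassium exchangers numbered 15, with 2 negative and 2 positive throughout the 3 arrays, 0 called and a median of 0.09. NHX1, the main sodium and potassium exchanger of the vacuole, had -0.51, -0.60 and -0.24, a mean of -0.45 ± 0.19 (SD, n = 3). NHX4 had a mean of -0.12, KEA4 of 0.12 and NHX5 of 0.09. Of 7 metal transporters of the vacuole and Golgi, 0 were of one sign on all 3 arrays and 0 were called, with a median of 0.11.

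**Figure D4:**
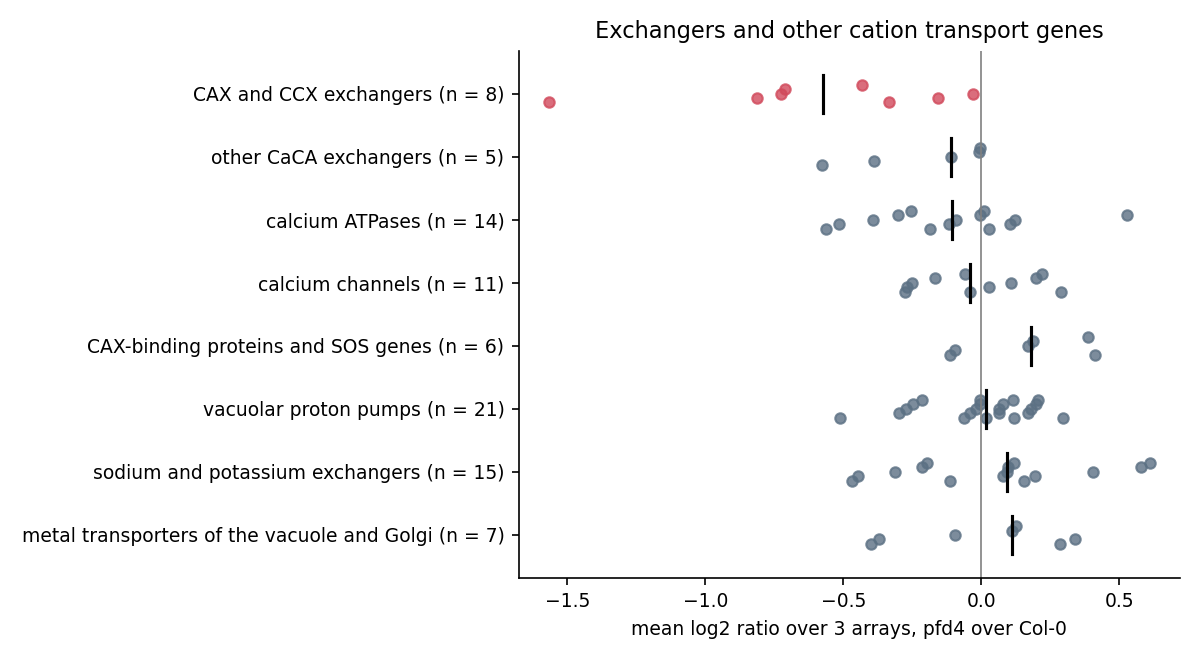
Mean log2 ratio over 3 arrays of pfd4 over Col-0 for the 8 exchangers and for each gene of 7 other lists of cation transport genes. Points are genes and bars the median of a list. The exchangers have a median of -0.57 and reach -1.57, while the medians of the other lists lie between -0.11 and 0.18.

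The 5 loci whose 3 ratios lay closest to those of CAX7, by Euclidean distance over the 3 arrays, were AT5G10625, AT4G28140, NCED3, UGT73B3 and ATSDI1. AT5G10625, annotated as similar to a flowering promoting factor, was nearest (distance 0.43) with log2 ratios of -0.98, -2.42 and -0.63. AT4G28140, an AP2 domain transcription factor, followed (distance 0.45) with -0.92, -2.16 and -1.04. NCED3, an enzyme of abscisic acid synthesis, had -0.67, -2.44 and -0.75 (distance 0.57). UGT73B3, annotated as a glucosyltransferase that also acts on abscisic acid, had -1.21, -1.93 and -0.97 (distance 0.59). ATSDI1 had -0.69, -2.76 and -0.63 (distance 0.66). All 5 were negative on every array and lowest on array 2, which the choice by distance implies.

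Because CAX1 is known for its link to the CBF factors of cold acclimation, their ratios are given beside it. CBF1 had log2 ratios of -0.17, -2.37 and -1.14, and CBF2 had -0.64, -1.41 and -0.15, both negative on all 3 arrays. CBF3 had 0.56, -1.78 and 0.08, so it was negative on array 2 alone. The list of 3 had a median of -0.73, and limma called 0 of them. All 3 were lowest on array 2, while CAX1 had close values on arrays 1 and 2.

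Markers of plant parts and stages were followed because CAX4 is known from roots and CAX7 from leaf senescence. Of 9 root markers and 7 pollen markers, 0 were of one sign on all 3 arrays, with medians of -0.06 and 0.00. Of 8 leaf senescence markers, 3 were negative and 1 was positive on all 3 arrays, with a median of 0.06 and means from -1.69 to 0.81. WRKY53, a regulator of senescence onset, had -0.97, -1.76 and -2.33, and the NAC factor gene NAP had -0.16, -3.09 and -1.34. SAG29, a sugar transporter gene of old leaves, had 1.01, 0.60 and 0.83, and SAG12, the classical marker, had -0.22, 0.06 and -0.08. The senescence markers thus went both ways; their part in the ratio of CAX7 was not tested. Of 3 leaf mesophyll markers, 0 were of one sign, and by array their median was -0.02, -1.21 and 0.38. The mesophyll markers were thus lowest on array 2, where CAX7, AT5G17850, CAX9 and CCX4 also had their lowest ratios, and their part in those ratios was not tested. Limma called 0 markers.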

How the data were processed

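RNA of pfd4 and Col-0 plants was measured on 3 dual-dye arrays of 45220 spots. The authors deposited a log2 ratio for every spot of each array, made with limma per the submitters' processing notes. The sources used here do not give its version, its settings, the log base or the genome build, and base 2 was taken as limma's scale. No signal intensities were used, so brightness over background is unknown. With 3 arrays, their number limits the precision. The 2 deposited tables had equal values at all 45220 spots.

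The 38613 spots with a locus code were averaged per locus and array, giving 29030 loci. The 8 exchangers had 10 spots, 1 spot for each of 6 genes and 2 spots for each of 2. Symbols came from the array annotation and a RefSeq table of assembly TAIR10.1, which held all 8.

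Limma 3.58.1 in R 4.3.3 (lmFit, eBayes) tested the mean ratio against 0, two-sided, with Benjamini-Hochberg adjustment across the 29030 loci and a call at 0.05, and was tested on simulated data. Errors are SDs over arrays. Members, lists, tests and the rule for named genes were chosen with earlier results of these data known. The rule named the 8 exchangers, PFD4, the other exchangers, up to 2 lowest and 2 highest genes of one sign per list, the 5 loci nearest CAX7 and its 3 neighbours on each side. SOS2, CXIP1, CBF3, SAG12 and the loci at the edge of the 2-fold rule were named after their values were seen. Of 113 listed genes, 110 were used, since VHA-H, CSC1 and MTP8 carried no matching symbol. The replicate number was read from each title. Averaging, centring, scaling, array sign, dye term, array weights and left-out arrays were varied.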

Additional observations from a re-analysis of the deposited data

How the results depend on the processing

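The mean of each of the 8 exchangers was recomputed under 10 alternatives, of which the dye term was added after the data were seen. Of these 80 values, 78 stayed within 1 SD of the reported mean. The sign of array 3 accounted for the other 2: with it turned, CAX3 had a mean of 0.12 and CAX1 of -0.43. Turning it also turns PFD4, which stood at -3.08, -2.71 and -2.17 on arrays 1, 2 and 3 as deposited. The 78 are no measure of robustness, since many could not have moved that far. Over 3 arrays, leaving 1 out or adding a dye term cannot shift a mean by 1 SD. The 2 deposited tables hold equal values, and the choice of spots leaves the 6 genes with 1 spot unchanged. CAX7 had a negative mean under all 10, from -1.85 to -0.90, and from -1.85 to -1.09 with each array left out in turn. The count of exchangers negative on all arrays was 6, and 1 with array 3 turned. The count of loci at least 2-fold lower on all arrays was 7, and 3 with array 3 turned; over 2 arrays it ranged from 13 to 92, since fewer arrays have to pass. Limma called 0 loci under every alternative run. Each array already holds 1 pfd4 and 1 Col-0 sample as a ratio, which leaves 1 group. Testing these ratios against 0 is thus the paired comparison, and no further pairing was run. A filter on dim spots was not run, and the 2 decimals of the deposited values limit ratios near 0.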
